A study of Mus musculus with 9 samples.

Results

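Granins and the enzymes that process neuropeptides were followed in brain RNA of adult male mice. The 10 genes were Vgf, Scg2, Scg3, Scg5, Chga, Chgb, Pcsk1, Pcsk2, Cpe and Pam, out of 54446 gene identifiers in the count tables. They were chosen by their role in the secretory pathway and by the measured CPM of Vgf in these same libraries, which raised the question whether Vgf moves alone. Their levels and folds between genotypes are therefore given as a description with no test of their own. All 10 passed the filter on low counts, with 1259 or more reads in every library.

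Polyadenylated RNA came from brain tissue of male mice aged 3 to 4 months, with 3 libraries for each of 3 genotypes. These were wild type (labelled B6N), Tfap2a+/- and Tfap2b+/-, the heterozygotes carrying 1 inactivated copy of AP-2 alpha or AP-2 beta, which are DNA-binding transcription factors. The sources used here name neither the part of the brain nor how each allele was made. They do not say that each library was a separate animal, and the p-values measure only the spread between libraries, which may be technical. Reads counted in genes came to 21946800 to 29214975 per library. Levels are CPM, that is, counts brought to one library size with TMM factors.

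Granins are acidic proteins that gather with peptide hormones and neuropeptides in the dense-core vesicles of neurons and endocrine cells, and several are themselves cut into signalling peptides. Inside the vesicle, prohormone convertases cut precursors after paired basic residues, carboxypeptidase E trims the basic residues left behind, and peptidylglycine alpha-amidating monooxygenase, encoded by Pam, amidates the new C-terminus. In the brain, transcription of Vgf and Scg2 is known to follow neurotrophins, cyclic AMP and neuronal firing. The cyclic AMP response element (CRE), which CREB binds, is a known part of several granin promoters.

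The stretches shown here hold the CRE, its first 5 letters or the AP-2 motif near the start of members, because genotypes of AP-2 are compared and CRE-driven genes are read below. RefSeq promoter windows on GRCm38.p6, from 250 bases before to 50 after the start, were at hand for 8 of the 10 genes, all but Vgf and Cpe. Both strands were searched for TGACGTCA (the CRE), for TGACG (which each CRE also holds) and for GCCNNNGGC (an AP-2 motif). Sequences run 5′ to 3′ on the strand of the gene, with the matched letters in capitals.
Scg2, minus strand, chr1:79440076-79440105: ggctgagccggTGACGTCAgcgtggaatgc
Chgb, plus strand, chr2:132781559-132781588: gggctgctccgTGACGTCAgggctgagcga
Pcsk1, plus strand, chr13:75089768-75089797: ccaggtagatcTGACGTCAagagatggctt
Chga, plus strand, chr12:102554885-102554914: ggggcggtcctaTGACGtaatttcctgggt
Pcsk2, plus strand, chr2:143546035-143546064: gctcggggcgGCCCGGGGCggggcccgccg
Pcsk2, plus strand, chr2:143546073-143546102: gcctccattgGCCGCTGGCgggcgcgcgtc
The CRE was found in 3 of the 8 windows, those of Scg2, Chgb and Pcsk1, where it began 68, 72 and 78 bases before the RefSeq start. It was found in 1.79% of 32851 windows of the same length. TGACG was found in 7 of the 8 windows and in 20.8% of all windows. GCCNNNGGC was found in 1 of the 8, that of Pcsk2, and in 16.6% of all windows. A match is a run of letters and not a measured binding site. The Scg2 and Chgb stretches lie within the span that GENCODE M21 gives to those genes, and the other stretches lie before it.

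Tfap2a, targeted in one group, was near the limit of detection, with 0.263 to 0.734 CPM in wild type against 0.223 to 0.461 CPM in Tfap2a+/-. Tfap2b, targeted in the other, went against its label, at 0.715 to 14.8 CPM in wild type and, overlapping but higher on average, 5.81 to 32.9 CPM in the libraries labelled Tfap2b+/-. That group is therefore called by its label throughout. Tissue content differed between libraries. The choroid plexus marker Ttr reached 2761 CPM in wild-type library 2 and 767 CPM in Tfap2a+/- library 1, against 6.28 to 244 CPM elsewhere. The serotonin enzyme gene Tph2 reached 40.9 CPM in library 1 labelled Tfap2b+/- and at most 1.55 CPM elsewhere. Of 15 hypothalamic markers 8 were tested, and the summed level of the list ran from 9.58 to 39.6 CPM over the libraries. Its transcription factor gene Nkx2-1 was at 4.90 CPM in Tfap2a+/- library 1 and at most 1.25 CPM elsewhere, while Sim1, Fezf1, Hmx2 and Otp were at 0.635 CPM or less in all libraries. The share of fragments assigned to no gene feature was 11.1% to 11.8% in the libraries labelled Tfap2b+/-, 7.30% to 8.86% in wild type and 8.07% to 8.96% in Tfap2a+/-. The part of these differences in the results was not tested.

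Vgf encodes a secreted precursor named for its induction by nerve growth factor. It was the member that set the libraries labelled Tfap2b+/- apart most clearly. Vgf (ENSMUSG00000037428.14, GRCm38 chromosome 5, 137026392 to 137033351, plus strand) measured 223, 279 and 238 CPM across the wild-type libraries, in the order 1 to 3 used for every gene. The Tfap2a+/- libraries gave 217, 224 and 222 CPM. Those labelled Tfap2b+/- gave 133, 149 and 147 CPM. All 3 libraries labelled Tfap2b+/- lay below all 6 others, and Tfap2a+/- overlapped with wild type. The means were 247 ± 28.8, 221 ± 4.05 and 143 ± 8.94 CPM (SD, n = 3 each). The fitted log2 fold of the libraries labelled Tfap2b+/- was -0.79 ± 0.10 (SE) against wild type, a ratio of 0.580. Against Tfap2a+/- it was -0.63 ± 0.10. For Tfap2a+/- against wild type it was -0.16 ± 0.10, with an interval from -0.38 to 0.06 that holds no change. In bulk tissue, fewer cells of a type and less RNA per cell cannot be told apart.

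Markers of tissue content moved with the low Vgf values in part. Of 15 pan-neuronal genes, 13 had a lower fold in the libraries labelled Tfap2b+/- than in wild type, beside 50.3% of all genes. Taken singly, 1 of the 15 lay wholly below wild type, beside 7.63% of all genes. The summed level of the 15 was 9922 to 11430 CPM there against 11775 to 12844 CPM in wild type, without overlap. In Tfap2a+/- it was 10525 to 12881 CPM, which overlapped with both. Scaled by these genes, the Vgf fold of the libraries labelled Tfap2b+/- against wild type was -0.66. This scaling moves all genes of a library alike. Against wild type, the median fold of all genes then stood at 0.13 in the libraries labelled Tfap2b+/- and at 0.04 in Tfap2a+/-. All 8 thalamic markers had a higher fold in the libraries labelled Tfap2b+/- (49.7% of all genes). Their sums were 265 to 1255 CPM against 378 to 410 CPM in wild type. Of 10 cortical markers 7 had a lower fold (50.3% of all genes), with sums of 1020 to 2319 CPM against 2207 to 2758 CPM. All 10 microglial markers had a lower fold (again 50.3%), with sums of 280 to 392 CPM against 366 to 423 CPM. The part of pan-neuronal, thalamic, cortical and microglial content in the Vgf value was not tested.

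**Figure D1:**
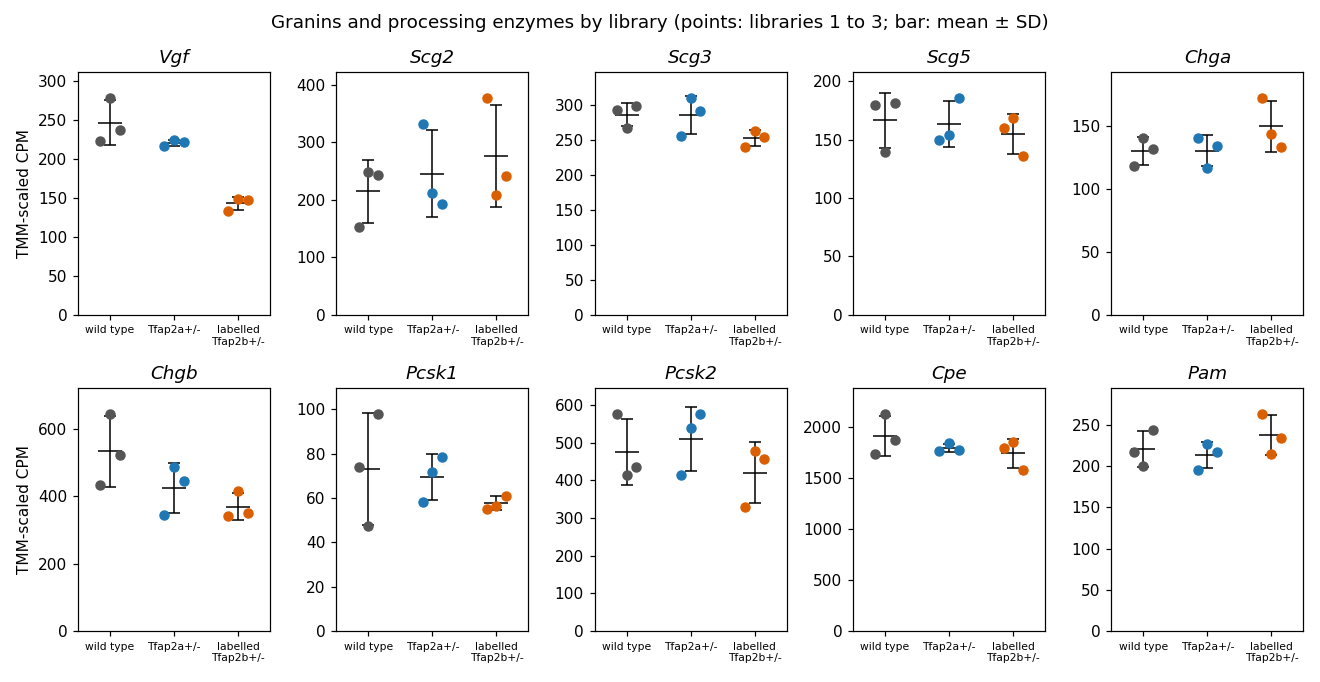
TMM-scaled CPM (linear axis from 0) of each of the 10 genes in the 9 libraries, by genotype label; points are libraries 1 to 3 (grey wild type, blue Tfap2a+/-, orange labelled Tfap2b+/-) and bars show mean ± SD (n = 3). Vgf in the libraries labelled Tfap2b+/- lies between 133 and 149 CPM, below the other 6 libraries at 217 to 279 CPM, while Scg2 spreads widely within every group.

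Chgb, the gene of chromogranin B, was the other granin with a lower fold of similar order. Chgb (ENSMUSG00000027350.8, chromosome 2, 132781278 to 132795079, plus strand) read 432, 643 and 523 CPM in wild type. The Tfap2a+/- libraries read 343, 487 and 445 CPM, and those labelled Tfap2b+/- read 341, 414 and 351 CPM. The last 3 lay below all wild-type libraries but overlapped with Tfap2a+/-. The log2 fold against wild type was -0.53 ± 0.18 (SE) in the libraries labelled Tfap2b+/- and -0.33 ± 0.17 in Tfap2a+/-. Wild-type library 2, the highest, weighed on these values. Without it they were -0.37 and -0.16, and without Tfap2a+/- library 1 the second was -0.19. The highest Vgf value also came from wild-type library 2, which held the most choroid plexus RNA. Leaving out at once that library and library 1 of each heterozygote (3 libraries with high choroid plexus or serotonergic markers, chosen after seeing the data), the Chgb folds were -0.31 and -0.03. Vgf then had log2 folds of -0.63 and -0.04 in the same comparisons.

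Scg2, Chga and Scg3 are further granins, and they did not follow Vgf in a common direction. Scg5 is read below with the convertases. Scg2 (ENSMUSG00000050711.7, chromosome 1, 79434669 to 79440120, minus strand), the precursor of secretoneurin, gave 152, 248 and 243 CPM in wild type. Tfap2a+/- gave 332, 212 and 192 CPM, and the libraries labelled Tfap2b+/- 377, 209 and 242 CPM. Library 1 of either heterozygote stood high, wild-type library 1 stood low, and all groups overlapped. Its log2 fold in the libraries labelled Tfap2b+/- was 0.36 ± 0.29 (SE) against wild type, and 0.08 without library 1 of that group, 0.16 without wild-type library 1. In Tfap2a+/- it was 0.19 ± 0.29, turning to -0.08 without Tfap2a+/- library 1 and standing at 0.00 without wild-type library 1.

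Chga (ENSMUSG00000021194.6, chromosome 12, 102554969 to 102565028, plus strand), the gene of chromogranin A, gave 118, 141 and 132 CPM in wild type. In Tfap2a+/- it gave 141, 117 and 134 CPM, and in those labelled Tfap2b+/- 173, 144 and 133 CPM. Libraries 1 and 2 labelled Tfap2b+/- were the highest of the 9, and library 3 lay inside the wild-type range. The log2 fold was 0.20 ± 0.12 (SE) there and 0.00 ± 0.12 in Tfap2a+/-. Scg3 (ENSMUSG00000032181.7, chromosome 9, 75643189 to 75684056, minus strand), secretogranin III, which links granin aggregates to the vesicle membrane, gave 292, 267 and 298 CPM in wild type. For Tfap2a+/- the values were 255, 310 and 291 CPM, and for those labelled Tfap2b+/- 240, 262 and 254 CPM. These last lay just below all wild-type libraries, by a log2 fold of -0.18 ± 0.09 (SE), and the 95% interval from -0.39 to 0.03 holds no change.

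Among the convertases and their partner, no group stood apart. Pcsk1 (ENSMUSG00000021587.5, chromosome 13, 75089826 to 75134861, plus strand), prohormone convertase 1, gave 74.1, 47.4 and 97.9 CPM in wild type, the widest spread relative to its mean of any member in that group. Values of 58.4, 71.6 and 78.6 CPM in Tfap2a+/- and of 55.1, 56.7 and 61.1 CPM in those labelled Tfap2b+/- were closer together. The last group lay inside the wild-type range. Its log2 fold against wild type was -0.34 ± 0.23 (SE), and -0.08 without wild-type library 3 or -0.57 without wild-type library 2. In Tfap2a+/- the fold was -0.07 ± 0.23, turning to 0.20 without wild-type library 3 and to 0.05 without Tfap2a+/- library 1.

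Pcsk2 (ENSMUSG00000027419.9, chromosome 2, 143546156 to 143816285, plus strand), prohormone convertase 2, gave 576, 415 and 436 CPM in wild type. The Tfap2a+/- libraries gave 414, 538 and 576 CPM. Those labelled Tfap2b+/- gave 329, 478 and 456 CPM. Library 1 labelled Tfap2b+/-, the highest for Scg2 and Chga, was the lowest for Pcsk2, and the groups overlapped. The log2 folds were -0.18 ± 0.19 (SE) and 0.10 ± 0.19 in the libraries labelled Tfap2b+/- and in Tfap2a+/-. Pcsk2 is overlapped by the annotated antisense genes Pcsk2os1 and Pcsk2os2, and counting without strand lost 19.7% to 21.9% of its reads per library. Scg5 (ENSMUSG00000023236.7, chromosome 2, 113776362 to 113829121, minus strand) encodes 7B2, the chaperone of convertase 2. It ran from 139 to 181 CPM in wild type, 150 to 186 CPM in Tfap2a+/- and 136 to 169 CPM in the libraries labelled Tfap2b+/-, so all groups overlapped.

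The trimming and amidating enzymes had overlapping groups. Cpe (ENSMUSG00000037852.8, chromosome 8, 64592542 to 64693054, minus strand), carboxypeptidase E, was the most abundant member, at 1736 to 2122 CPM in wild type, 1762 to 1836 CPM in Tfap2a+/- and 1577 to 1846 CPM in the libraries labelled Tfap2b+/-. Pam (ENSMUSG00000026335.16, chromosome 1, 97795114 to 98095646, minus strand) was at 201 to 244, 196 to 227 and 215 to 263 CPM in the same order. Its span is overlapped on the same strand by Gm37140, Gm3531 and B230216N24Rik, which counting by strand does not set apart. The part of this overlap in the Pam level was not tested. Over the 9 libraries the coefficient of variation was 7.98% for Cpe, 8.68% for Scg3 and 9.42% for Pam, against 22.4% for Chgb, 23.1% for Pcsk1, 24.1% for Vgf and 28.4% for Scg2. Of 10018 genes at a mean of 10 CPM or more, 32.3% had a lower coefficient than Cpe, 44.1% a lower one than Pam and 88.0% a lower one than Vgf.

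**Figure D2:**
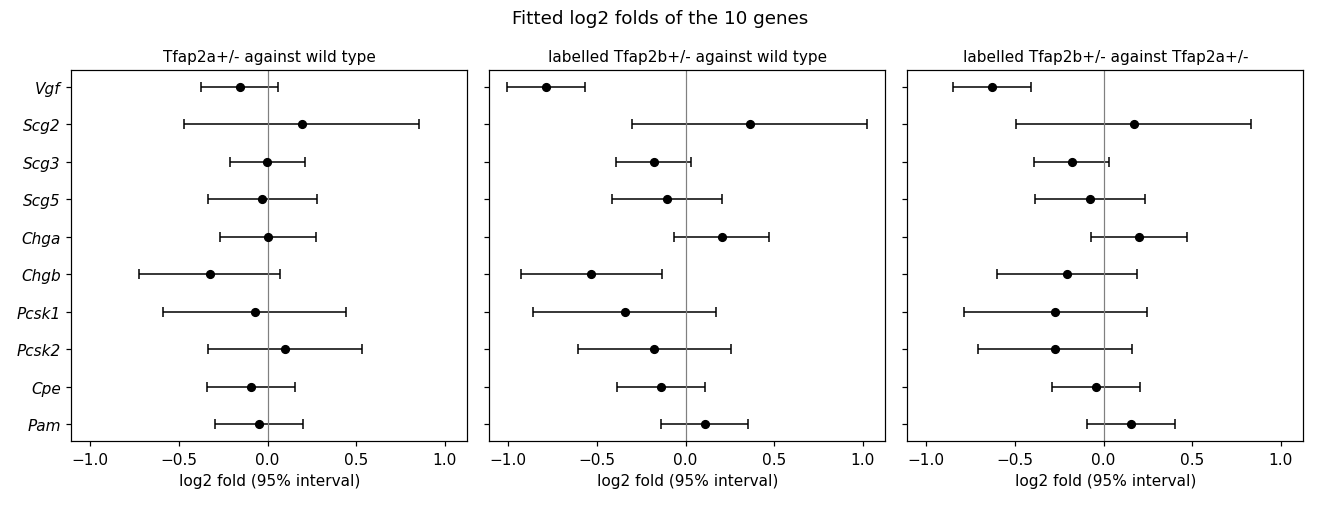
Fitted log2 fold (horizontal axis) with its 95% interval for each of the 10 genes in the 3 comparisons. Vgf lies at -0.79 and -0.63 where the libraries labelled Tfap2b+/- are compared with wild type and with Tfap2a+/-. The interval of each Tfap2a+/- fold against wild type holds 0. The level of Vgf prompted the choice of the set, so its intervals are not read as a test.

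Set side by side, Vgf lay outside the other 9 members in the libraries labelled Tfap2b+/-, but it was not the single member with a lower value there. Against wild type, the other 9 ran from -0.53 (Chgb) to 0.36 (Scg2) with a median of -0.14, 6 of them lower and 3 higher. With Vgf, 7 of 10 members were lower and 3 higher, beside 50.3% and 49.7% of all genes. With pan-neuronal scaling 4 were higher, where 73.2% of all genes were, and 7 of 10 still lay below the median of all genes. With TMM scaling, Vgf minus the median of the other 9 was -0.65. It lay between -0.80 and -0.47 when each library was left out, the ends being the fits without wild-type libraries 1 and 2. Against Tfap2a+/- 7 of the 10 were lower and 3 higher, beside 48.3% and 51.7% of all genes. The other 9 ran from -0.27 to 0.20 there and Vgf minus their median was -0.55. In Tfap2a+/- against wild type 7 were again lower and 3 higher, beside 51.8% and 48.2% of all genes. With pan-neuronal scaling 5 were higher in each of these comparisons, where 67.0% of all genes were higher against Tfap2a+/- and 61.3% in Tfap2a+/- against wild type. In Tfap2a+/- against wild type Vgf minus the median of the other 9 was -0.13, and the Vgf fold of -0.16 lay inside the range of the other 9, from -0.33 to 0.19. The difference between Vgf and Chgb was not tested.

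The same CPM values can be set side by side within each library. Each gene's log2 CPM was taken relative to its own mean over the 9 libraries. In libraries 1 to 3 labelled Tfap2b+/- the Vgf deviation was -0.58, -0.41 and -0.43, while the lowest of the other 9 was at -0.49, -0.20 and -0.30. Vgf was thus the lowest of the 10 genes in each of these 3 libraries. In the 6 other libraries Vgf lay 0.13 to 0.53 above the median of the other 9. Because each gene is centred over these 9 libraries, this restates the CPM values and adds no support to them.

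**Figure D3:**
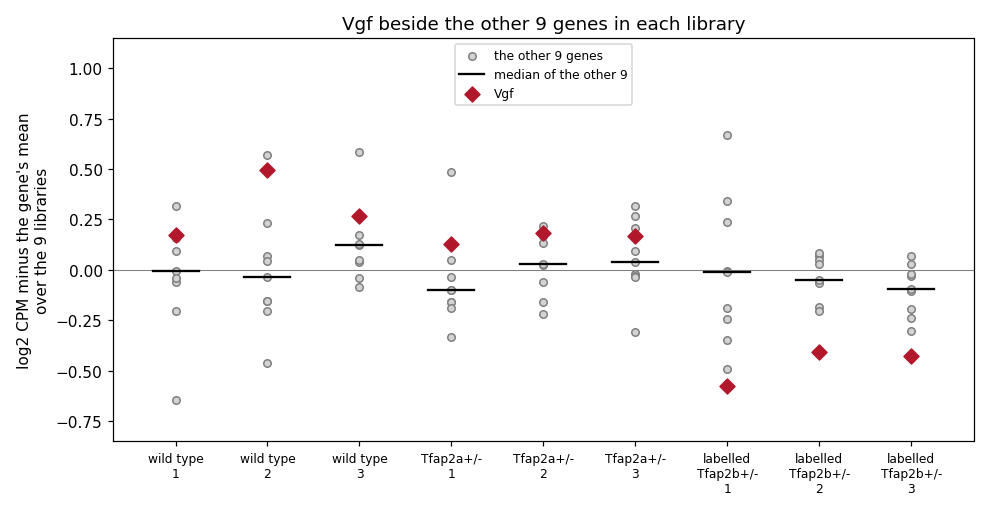
Log2 CPM minus the mean of each gene over the 9 libraries (vertical axis) for Vgf (diamonds), the other 9 genes (grey points) and their median (bars), in each library. Vgf is below all 9 others in the libraries labelled Tfap2b+/- (-0.58, -0.41 and -0.43) and above their median in the other 6.

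With edgeR's quasi-likelihood test over 17355 genes, none of the 10 members passed a Benjamini-Hochberg adjusted p of 0.05 in any comparison, and nor did any other gene (0% called in each). At an unadjusted p under 0.05 there were 0 members in Tfap2a+/- against wild type (3.84% of all genes), 2 in the libraries labelled Tfap2b+/- against wild type (10.6%) and 1 in the latter against Tfap2a+/- (11.5%). DESeq2 called 0 members in the first comparison (0.173% of all genes) and 1 in the second and the third (1.01% and 1.27%). That member was Vgf, whose level prompted the choice of the set, so nothing is read from these calls. Groups that did not overlap were counted too, and nothing is read from these counts either where Vgf is among them. In the libraries labelled Tfap2b+/- against wild type, 3 of 10 members (Vgf, Scg3 and Chgb) lay wholly lower, beside 7.63% of all genes, and 0 wholly higher, beside 8.84%. Without the 3 libraries named above, with 2 libraries left per group, 5 members lay wholly lower and 1 wholly higher, beside 17.3% and 19.2% of all genes in those smaller groups. Against Tfap2a+/- 1 member, Vgf, lay wholly lower (8.03% of all genes) and 0 wholly higher (9.20%). In Tfap2a+/- against wild type 0 lay wholly lower (4.32%) and 0 wholly higher (4.85%), 9.17% of all genes together. The median log2 fold of the 10 members was -0.04, -0.16 and -0.13 in Tfap2a+/- against wild type, in the libraries labelled Tfap2b+/- against wild type and in the latter against Tfap2a+/-, where that of all genes was -0.01, 0.00 and 0.01. These comparisons share libraries, and their values for Vgf are not independent of each other.

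Per kilobase of annotated exon, the order of levels was fixed at its ends. In wild type Cpe stood at 732 CPM per kb and Chgb at 194. Scg5 (106), Scg3 (104), Scg2 (85.3) and Vgf (83.0) followed, then Pcsk2 (60.1), Chga (47.3), Pam (18.5) and Pcsk1 (13.0). Cpe was the first, Pam the ninth and Pcsk1 the tenth of the members in all 9 libraries. Of the neighbours in that order, Scg5 and Scg3, Scg3 and Scg2, and Scg2 and Vgf exchanged places between wild-type libraries and do not differ beyond their spread. Vgf ranked above Pcsk2 in all 3 wild-type libraries. Vgf took place 5 or 6 in the wild-type and Tfap2a+/- libraries and place 7 or 8 in the libraries labelled Tfap2b+/-. Exon lengths are those of all annotated isoforms together, which lowers the per-kb level of genes with long annotated isoforms, such as Pam (11892 bases) and Pcsk2 (7910 bases).

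The make-up of the granin transcripts moved accordingly. Of the summed per-kb level of the 6 granins (Vgf, Scg2, Scg3, Scg5, Chga and Chgb), Vgf made up 13.5%, 14.1% and 12.5% in wild-type libraries 1 to 3. It made up 12.8%, 12.8% and 12.7% in Tfap2a+/- and 7.82%, 9.30% and 9.86% in the libraries labelled Tfap2b+/-. The last 3 shares lay below all others. The share of Chga was 7.50% to 7.71% in wild type, 7.17% to 8.96% in Tfap2a+/- and 9.66% to 11.0% in the libraries labelled Tfap2b+/-, above all others. The summed level itself was 621 ± 56.4, 583 ± 11.3 and 538 ± 34.9 CPM per kb (SD, n = 3). A share moves when any other granin moves, so these values restate the levels above.

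Other genes that shape peptide cargo were read from a further list. In this list of 19 proteases and modifying enzymes, 18 were tested, and 0 passed with edgeR or DESeq2 in either comparison with wild type. At an unadjusted edgeR p under 0.05 there was 1 in each, beside 10.6% of all genes in the libraries labelled Tfap2b+/- and 3.84% in Tfap2a+/-. Against wild type, 12 of the 18 had a lower fold and 6 a higher one in the libraries labelled Tfap2b+/-, with a median of -0.03. In Tfap2a+/- 10 were lower and 8 higher, with a median of -0.02. Of all genes 50.3% and 51.8% were lower in these comparisons. With pan-neuronal scaling the medians of the 18 were 0.10 and 0.03, beside 0.13 and 0.04 for all genes. Mme, the peptide-degrading neprilysin, measured 10.9, 12.3 and 15.6 CPM in wild type against 33.4, 29.2 and 16.8 CPM in Tfap2a+/-, groups that did not overlap (log2 fold 1.03 ± 0.25 SE, edgeR adjusted p = 0.999). The striatal marker list was higher in the same libraries, with summed levels of 1269 to 3477 CPM against 644 to 1404 CPM in wild type. In this list 12 of 12 genes had a higher fold, beside 48.2% of all genes. The part of striatal content in the Mme value was not tested. Ece2, an endothelin-converting enzyme family member, was at 1.03 to 1.97 CPM in wild type and 2.15 to 4.62 CPM in the libraries labelled Tfap2b+/- (edgeR adjusted p = 0.43). Furin, the convertase of the constitutive pathway, was at 30.6 to 49.5 and 28.3 to 35.3 CPM in the same groups, which overlapped.

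Of 22 genes of dense-core vesicle formation, transport and release, all were tested and 0 passed with edgeR in either comparison with wild type. At an unadjusted edgeR p under 0.05 there were 3 in the libraries labelled Tfap2b+/- (10.6% of all genes) and 0 in Tfap2a+/- (3.84%). The median log2 fold was -0.08 in the libraries labelled Tfap2b+/- and -0.06 in Tfap2a+/-. In each, 15 were lower and 7 higher, beside 50.3% and 51.8% of all genes lower. With pan-neuronal scaling the medians were 0.05 and -0.01, beside the same 0.13 and 0.04 for all genes. Cyb561, the cytochrome that supplies electrons to Pam inside the vesicle, gave 69.9, 75.5 and 63.9 CPM in wild type. The Tfap2a+/- libraries gave 62.4, 64.9 and 60.2 CPM. Those labelled Tfap2b+/- gave 47.4, 55.0 and 54.5 CPM. The last group lay below the 6 others (log2 fold -0.42 ± 0.09 SE against wild type, edgeR adjusted p = 0.26). Syt9, a calcium sensor of vesicle release, was at 13.2 to 15.2 CPM in wild type and 18.6 to 51.4 CPM in the libraries labelled Tfap2b+/- (log2 fold 1.41 ± 0.35 SE, edgeR adjusted p = 0.32). DESeq2 called 2 genes of the list in this comparison, Cyb561 and Syt9, beside 1.01% of all genes. Slc18a2, the vesicular monoamine transporter, was at 26.5 CPM in library 1 labelled Tfap2b+/-, where Tph2 was high, and at 0.267 to 2.19 CPM elsewhere. Rab3a, a small G protein of vesicle release, was at 436 to 483 CPM in wild type and 403 to 417 CPM in the libraries labelled Tfap2b+/-.

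Neuropeptide precursors are the cargo. Of 38 listed, 23 passed the filter on low counts and 0 passed the test with edgeR or DESeq2 against wild type. At an unadjusted edgeR p under 0.05 there were 3 in Tfap2a+/- (3.84% of all genes) and 3 in the libraries labelled Tfap2b+/- (10.6%). DESeq2 gave no adjusted p for 1 and 2 of the 23 in the same order. In the libraries labelled Tfap2b+/- 15 had a lower and 8 a higher fold than wild type (50.3% of all genes were lower), with a median of -0.31. The median moved to -0.06 without wild-type library 1 and to -0.09 without either wild-type library 2 or library 2 labelled Tfap2b+/-. In Tfap2a+/- 12 were lower and 11 higher (51.8% of all genes were lower), with a median of -0.01 that kept its sign in 7 of 19 alternatives. Somatostatin (Sst) was at 100, 101 and 87.8 CPM in wild type. Values in Tfap2a+/- were 90.9, 97.4 and 97.8 CPM, followed by 54.7, 68.8 and 83.9 CPM in the libraries labelled Tfap2b+/-. These last lay below the 6 others (log2 fold -0.48 ± 0.14 SE against wild type, edgeR adjusted p = 0.37). Tac2, the neurokinin B precursor, was at 2.74 to 4.70 and 4.64 to 8.75 CPM in wild type and in the libraries labelled Tfap2b+/-. Cartpt reached 25.1 CPM in library 1 labelled Tfap2b+/- and at most 11.2 CPM elsewhere. Crh, the corticotropin-releasing hormone gene, measured 1.96 to 3.62 CPM in wild type against 3.70 to 5.11 CPM in Tfap2a+/-, and Grp, the gastrin-releasing peptide gene, at 5.45 to 6.70 and 1.44 to 4.23 CPM (edgeR adjusted p = 0.999 each). Pomc and the pituitary hormone gene Gh were both highest in wild-type library 1, at 15.5 and 59.3 CPM, and both lowest in Tfap2a+/- library 1, at 0.205 and 0.479 CPM. Libraries 1 and 3 labelled Tfap2b+/- held 25.8 and 42.4 CPM of Gh. The part of pituitary tissue in these values was not tested.

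**Figure D4:**
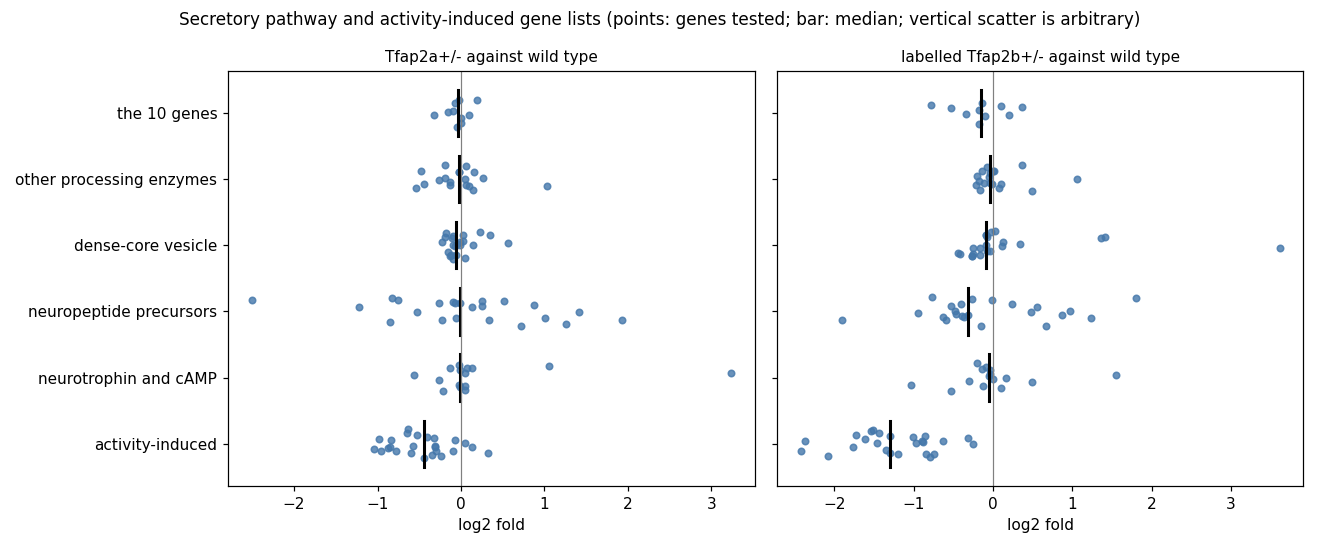
Log2 fold against wild type (horizontal axis) of each tested gene (points) in the 10-gene set and 5 further lists, with list medians (bars), in Tfap2a+/- (left) and in the libraries labelled Tfap2b+/- (right). The activity-induced list has medians of -0.44 and -1.29, the other lists between -0.06 and -0.01 on the left and between -0.31 and -0.03 on the right.

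Signalling around Vgf was read from a list of 15 genes, mostly of neurotrophin and cyclic AMP signalling. A second list held 25 activity-induced genes, and both were chosen with earlier results known. Of the 15, 10 had a lower and 5 a higher fold in the libraries labelled Tfap2b+/- against wild type, beside 50.3% and 49.7% of all genes. Their median was -0.04, or 0.02 without the 3 libraries, and 0.09 with pan-neuronal scaling, where that of all genes was 0.13. With edgeR 0 passed (2 at an unadjusted p under 0.05, beside 10.6% of all genes). DESeq2 called 1, Bdnf (1.01% of all genes). Bdnf, the neurotrophin that induces Vgf in cultured neurons, gave 23.8, 45.8 and 44.9 CPM in wild type. Values in Tfap2a+/- were 19.6, 29.6 and 28.3 CPM, followed by 14.3, 23.4 and 18.3 CPM in the libraries labelled Tfap2b+/-. All of these last lay below wild type and overlapped with Tfap2a+/- (log2 fold -1.03 ± 0.28 SE against wild type, edgeR adjusted p = 0.35). Its receptor gene Ntrk2 was at 866 to 939 CPM in wild type and 820 to 850 CPM in the libraries labelled Tfap2b+/-. Crem, an inducible CRE-binding factor, was at 13.7 to 19.9 and 10.2 to 12.9 CPM, and Crtc1, a CREB coactivator, at 230 to 248 and 143 to 228 CPM in the same groups.

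All 25 activity-induced genes had a lower fold in the libraries labelled Tfap2b+/-, beside 50.3% of all genes, with a median of -1.29. For 17 of them the group lay wholly below wild type, where 7.63% of all genes did. With edgeR 0 passed (19 at an unadjusted p under 0.05, beside 10.6% of all genes), while DESeq2 called 11 (1.01% of all genes). Without the 3 libraries named above 24 of 25 were lower, beside 48.7% of all genes. In Tfap2a+/- 22 of 25 were lower (51.8% of all genes) and 0 lay wholly below wild type (4.32%), with a median of -0.44. This median stayed negative under all 19 alternatives, from -0.67 to -0.08. The weakest value came from dropping wild-type library 3, and the strongest from dropping the same 3 libraries. In the latter fit 20 of the 25 genes were lower and 5 higher in Tfap2a+/-. With 2 libraries left per group, 9 then lay wholly below wild type and 1 wholly above. The shares of all genes were not worked out for this fit, so nothing is read from its counts. Arc, a synaptic regulator, gave 258, 129 and 463 CPM in wild type and 51.6, 63.1 and 43.9 CPM in the libraries labelled Tfap2b+/-, where DESeq2 called it. The immediate early phosphatase gene Dusp1 was at 26.2 to 52.6 CPM in wild type and 13.5 to 14.1 CPM in the libraries labelled Tfap2b+/-.

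The mean score of this list and Vgf had their highest wild-type values in different libraries. The list was scored in each library by averaging, over its 25 genes, the deviation of log2 CPM from each gene's own mean. The score was 0.09, 0.28 and 1.13 in wild-type libraries 1 to 3, so library 3 was the highest, while the highest Vgf value was in library 2. Within wild type both were lowest in library 1. Single genes of the list did not all have their highest wild-type value in library 3. The score was 0.33, -0.05 and 0.19 in Tfap2a+/-, where Vgf varied by 4.05 CPM (SD), and -1.06, -0.44 and -0.47 in the libraries labelled Tfap2b+/-. Both the score and Vgf were lowest of the 9 libraries in library 1 labelled Tfap2b+/-. Scg2, which is known to be inducible too, was at its highest of the 9 libraries there. The pan-neuronal score was -0.12, -0.05 and -0.05 in the libraries labelled Tfap2b+/-. It was -0.10, 0.07 and 0.07 in Tfap2a+/- and 0.13, 0.04 and 0.02 in wild type.

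**Figure D5:**
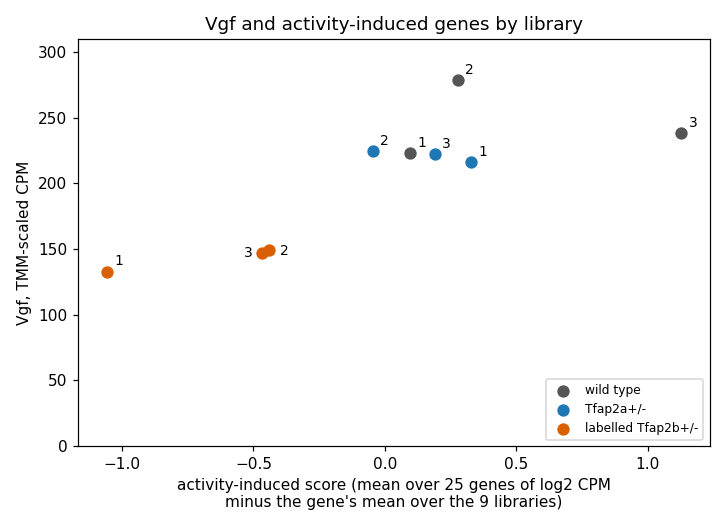
Vgf in TMM-scaled CPM (vertical axis, from 0) against the activity-induced score of each library (horizontal axis), with grey points for wild type, blue for Tfap2a+/- and orange for labelled Tfap2b+/-, numbered by library. The libraries labelled Tfap2b+/- have scores of -1.06 to -0.44 and Vgf at 133 to 149 CPM, and wild-type library 3 has the highest score (1.13) but not the highest Vgf.

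Among the other 17354 genes tested, the 5 whose log2 CPM followed Vgf most closely over the 9 libraries were Wbp4 (Pearson's r = 0.966), Hsph1 (0.962), Nol6 (0.953), Cavin3 (0.951) and Kmt5a (0.950). These values are a description over 9 libraries that share genotypes, and all 5 genes, like Vgf, were lower in the 3 libraries labelled Tfap2b+/- than in the 6 others. Hsph1, a cytosolic chaperone gene, was at 352 to 413 CPM in wild type, 359 to 367 CPM in Tfap2a+/- and 263 to 304 CPM in the libraries labelled Tfap2b+/-. Wbp4, a splicing factor gene, moved over a narrower range, from 57.4 to 69.7 CPM over all libraries. Of the other members, Chgb was the most like Vgf (r = 0.769, Spearman's rho = 0.933) and Chga the least (r = -0.564).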

How the data were processed

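The authors deposited whole-number counts per gene and library, in the layout of STAR gene counts. STAR 2.6.1d, cutadapt 2.4, edgeR and the build GRCm38.p6 are listed, without roles, in the submitters' processing notes. No source used here gives the annotation release. Per the labels' protocols, libraries were made with dUTP in the second strand, so the deposited reverse-strand counts were used. Rows that name no gene (15.5% to 19.7% of fragments) stayed out of library sizes and tests. Symbols and coordinates came from GENCODE M21 (54409 of 54446 identifiers, ignoring versions).

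Counts were filtered with filterByExpr (17355 genes), TMM-scaled and tested with edgeR 4.0.16 (R 4.3.3), with a term for genotype alone and the 9 libraries fitted together, and p-values adjusted by Benjamini-Hochberg. Log2 CPM used a prior count of 2. Alternatives included DESeq2 1.42.0. The functions were tested on simulated counts. Libraries of 1 genotype differed by a chi-square per degree of freedom of 19.9 or more, so none was a repeat. Precision rests on 3 libraries per group, and counting error is small at 1259 or more reads. Members and lists were chosen with earlier results of these data known. Named genes are the members, the Tfap2 genes, the genes of smallest p in each list (up to 4 for Tfap2b+/- and 3 for Tfap2a+/-), the 5 most like Vgf, and region markers.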

Additional observations from a re-analysis of the deposited data

How the results depend on the processing

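Each result was recomputed under 19 alternatives: DESeq2, its size factors in edgeR, pan-neuronal scaling, 2 other filters, a fit with the replicate block, counts without strand, fits of 2 genotypes alone, a robust fit, each of the 9 libraries left out, and, chosen after seeing the data, 3 libraries left out together. DESeq2 called 1 of the 10 members (Vgf) and 2 other secretory pathway genes in the libraries labelled Tfap2b+/- against wild type, and again 1 (Vgf) and 2 against Tfap2a+/-, where edgeR called 0. Over all genes DESeq2 called 30, 175 and 221 in the 3 comparisons and edgeR 0, or 2, 0 and 7 with no filter on low counts. Without library 3 labelled Tfap2b+/- edgeR called 31 of all genes against Tfap2a+/-, among them 1 secretory pathway gene, Syt9 (range 0 to 1 with each library left out), and 4 of all genes against wild type. Leaving out another library gave at most 3 calls over all genes in a comparison. The cause was not tested.

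The Vgf fold in the libraries labelled Tfap2b+/- kept its sign under all 19 alternatives, from -0.85 to -0.63 against wild type and from -0.66 to -0.54 against Tfap2a+/-. Vgf minus the median of the other 9 ranged from -0.80 to -0.47 against wild type with each library left out. The same-numbered libraries deviated together in 3 of 9 pairs (r over 0.1, range -0.352 to 0.337), and 2 of 9 libraries correlated best with their own number. These values show no pairing by number but cannot exclude one, because tissue content also differed between libraries. With the replicate block 0 members were called in each comparison and the Vgf fold was -0.78 against wild type. With pan-neuronal scaling 73.2% of all genes had a higher fold in that comparison, against 49.7% with TMM.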
